A study of Rattus norvegicus with 15 samples.

Results

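The genes of autophagy and of the lysosome were examined in gastrocnemius muscle of male Wistar rats that had received a diet poor in protein after weaning. The genes were taken by symbol: the numbered Atg genes, the cathepsins (Cts and 1 letter), the Lamp, Gabarap, Map1lc3, Ulk, Atp6v and Wipi families, and Sqstm1, Bnip3, Bnip3l, Becn1, Tfeb, Creg1, Nbr1 and Optn, wherever a probe set of the rat genome array carried that symbol alone. This gave 105 probe sets for 73 genes, of 31042 probe sets and 14217 genes on the array, and 24 of the 73 genes had at least 2 probe sets. Nbr1 and the widely used markers Map1lc3b and Gabarapl2 had only probe sets with several symbols and were not given values. The LP group (n = 4) was fed 8% casein for 4 weeks and the CN group (n = 4) 15% casein. The LP-R group (n = 4) and the CN-R group (n = 3) had the same 2 diets for 4 weeks and were sampled at day 84. The paper's methods put both of these groups on the 15% casein diet after the 4 weeks, whereas the sample labels keep each rat on its first diet, and the methods are followed here. All rats were fasted for 16 h before sampling, each array was taken to be 1 rat, and the CN-R arrays are replicates 1, 2 and 4. The title of CN-R replicate 4 names a control and its treatment field protein restriction, and it was kept in CN-R. Of 12 skeletal muscle fiber markers, 11 were measured, with the brightest probe set of each between 11.59 and 14.07 on the log2 scale in the 1-month arrays, where the median of all probe sets was 6.49.

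Autophagy encloses cytoplasm, protein aggregates and worn organelles in a double membrane, the autophagosome, and delivers them to the lysosome for breakdown. The Ulk kinase complex starts the membrane and the Becn1 lipid kinase complex nucleates it. The Atg conjugation enzymes then attach LC3 and GABARAP proteins to it, receptors such as p62 (Sqstm1) hold the cargo, and cathepsins digest the contents in a lumen that the V-ATPase keeps acid. In skeletal muscle the process runs during fasting and disuse, and FoxO and TFEB transcription factors are known to induce many of its genes. All animals here were fasted, so both sides of each comparison carry that state. What was measured is the amount of mRNA, which gives neither protein nor autophagic flux.

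Rank products, the method named in the study's methods, called 4 of the 73 genes in LP against CN: Ctsl, Sqstm1 and Gabarapl1 were lower, each by both of its varying probe sets, and Creg1 was called in opposite directions by 2 probe sets. In LP-R against CN-R, Creg1 alone was called, lower by both probe sets. No member passed limma with Benjamini-Hochberg adjustment over all probe sets in either comparison. To show what lies upstream of the called genes, the 250 bases before the annotated start of each are given from RefSeq (build GRCr8, 5′ to 3′ on the strand of the gene), with those of Ctsd and Lamp1 as examples of members that hold the E-box. Capitals mark the E-box CACGTG, the core of the element that TFEB binds, and the GC box GGGCGG, on either strand.
Ctsl (chr17:769854-770103, plus strand): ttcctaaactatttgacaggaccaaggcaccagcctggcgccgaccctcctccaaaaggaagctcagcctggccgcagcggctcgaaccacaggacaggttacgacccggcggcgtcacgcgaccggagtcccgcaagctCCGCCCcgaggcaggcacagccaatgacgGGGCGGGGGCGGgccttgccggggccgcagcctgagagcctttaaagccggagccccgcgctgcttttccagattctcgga
Sqstm1 (chr10:35037751-35038000, minus strand): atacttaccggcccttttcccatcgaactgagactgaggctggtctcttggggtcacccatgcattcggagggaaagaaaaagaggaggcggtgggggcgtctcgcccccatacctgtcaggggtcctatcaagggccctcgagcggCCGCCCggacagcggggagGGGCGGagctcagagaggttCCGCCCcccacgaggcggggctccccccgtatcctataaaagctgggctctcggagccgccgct
Gabarapl1 (chr4:164666082-164666331, plus strand): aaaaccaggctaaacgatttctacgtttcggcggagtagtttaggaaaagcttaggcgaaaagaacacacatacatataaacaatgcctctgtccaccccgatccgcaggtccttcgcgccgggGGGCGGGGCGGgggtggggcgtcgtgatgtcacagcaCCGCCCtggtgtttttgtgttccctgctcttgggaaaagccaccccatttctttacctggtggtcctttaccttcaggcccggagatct
Creg1 (chr13:80552571-80552820, plus strand): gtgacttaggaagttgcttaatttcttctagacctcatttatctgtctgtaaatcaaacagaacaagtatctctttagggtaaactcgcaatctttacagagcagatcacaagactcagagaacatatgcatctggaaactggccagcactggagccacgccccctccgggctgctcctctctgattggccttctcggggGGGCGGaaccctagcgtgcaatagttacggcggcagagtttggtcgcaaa
Ctsd (chr1:206968822-206969071, minus strand): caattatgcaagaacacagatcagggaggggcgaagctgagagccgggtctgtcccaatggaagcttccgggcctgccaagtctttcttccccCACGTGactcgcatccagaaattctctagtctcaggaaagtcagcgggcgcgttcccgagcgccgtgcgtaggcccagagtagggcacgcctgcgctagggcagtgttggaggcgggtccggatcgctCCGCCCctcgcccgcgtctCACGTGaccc
Lamp1 (chr16:83075064-83075313, minus strand): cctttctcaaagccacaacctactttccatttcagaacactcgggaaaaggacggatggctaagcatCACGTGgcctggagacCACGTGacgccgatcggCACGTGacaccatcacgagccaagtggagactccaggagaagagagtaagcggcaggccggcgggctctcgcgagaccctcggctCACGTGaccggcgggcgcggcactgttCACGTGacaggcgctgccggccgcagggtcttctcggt
Ctsd held CACGTG 2 times and Lamp1 5 times. Of the 73 member genes, 61 had a promoter entry, and 7 of these (11.5%) held CACGTG: Atg3, Atg5, Atp6v0d1, Bnip3, Ctsd, Ctsf and Lamp1. The 4 called genes were among the many members without it, and no difference between called and other members is read from this. Over all 33469 promoters the share was 5.59%. The longer palindrome TCACGTGA, which contains the E-box, was in 4 of the 61 (6.56%) and in 0.657% of all promoters. The FoxO core GTAAACA was in 1 of the 61, that of Atp6v1b1, and in 3.21% of all. The GC box was in 37 of the 61 (60.7%), including all 4 called genes, and in 30.5% of all. These matches are descriptions of the sequence, and binding was not measured.

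The authors' summary, FARMS, returns almost the same value on all arrays when the probes of a set do not move in concert, so most members carry a level but no usable difference. A probe set was taken to vary when its SD over the arrays of a comparison was above 0.01. In LP and CN, 20 of the 105 member probe sets (19.0%), for 16 genes, varied, where 12.8% of all probe sets did. In LP-R and CN-R, 18 (17.1%) varied, for 15 genes, where 9.99% of all did, and 9 probe sets varied in both sets of arrays. The other 85 members of the early arrays lay at levels between 5.34 and 11.34, and their changes did not exceed 0.0043 in size. Among them were Becn1 (9.45), Map1lc3a (10.08), the cathepsin Ctsb (10.18), Lamp1 (11.34) and Tfeb (8.61), for which neither a difference nor its absence can be read. Over both sets of arrays 24 of the 73 genes had a probe set that varied in at least 1 of them, and 76 probe sets varied in neither.

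The near constants were spread over all classes. Of 35 probe sets for 22 genes of initiation, nucleation and conjugation, 31 were near constant in LP and CN. Among them were the lipid scramblase Atg9a (9.93 at its brighter probe set), the conjugation proteins Atg3 (9.03), Atg5 (8.00) and Atg7 (6.92), the kinase Ulk2 (9.29) and the lipid-binding Wipi1 (9.52). Of 21 cathepsin probe sets for 18 genes, 17 were near constant. These hold the lysosomal proteases Ctsb (10.18), Ctsa (9.35), Ctsh (9.38), Ctss (8.40) and Ctsz (7.35), and also the cathepsins of the rodent placenta Ctsj, Ctsm, Ctsq and Ctsr, which lay between 5.34 and 5.82, under the median of all probe sets. Of 25 V-ATPase probe sets for 20 genes, 23 were near constant, and the subunits known from kidney, Atp6v1b1 (5.61) and Atp6v1g3 (5.95 and 5.50), were also under that median. Of 9 receptor probe sets 5 were near constant, including 2 of the 4 for Sqstm1, at 6.26 and 6.21. Levels of different probe sets depend on their probes and do not rank the genes.

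**Figure D1:**
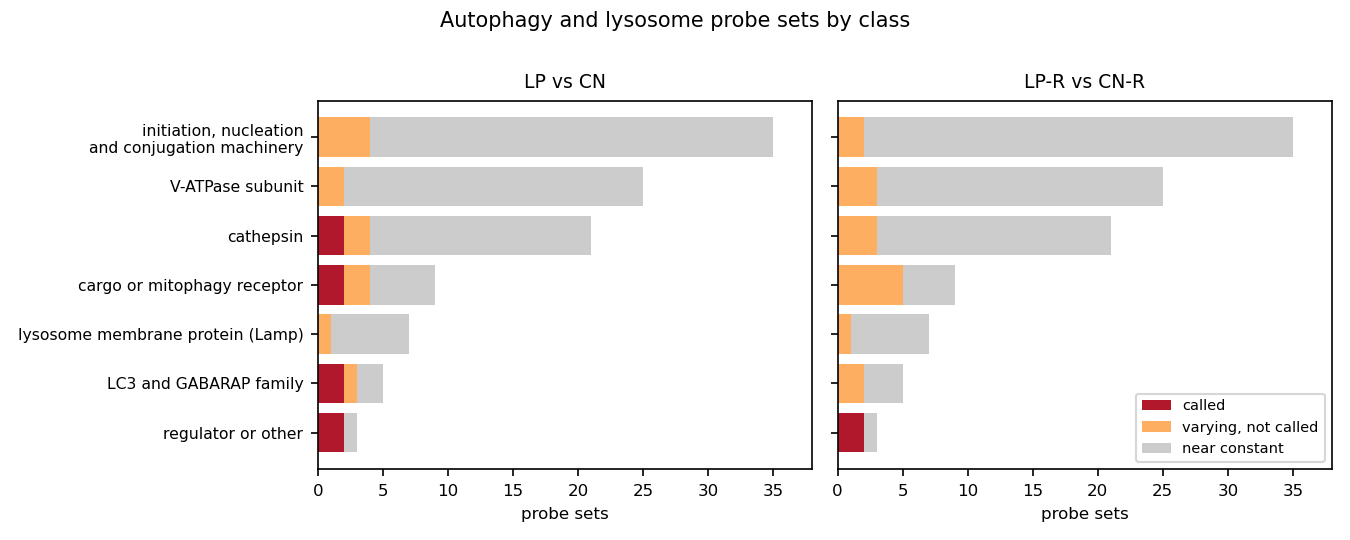
Number of member probe sets in each class (horizontal axis) for LP vs CN on the left and LP-R vs CN-R on the right, split into called by rank products, varying but not called, and near constant. In LP vs CN the 8 called probe sets fall in 4 classes. For initiation, nucleation and conjugation 0 of 35 were called, of which 4 varied, and for the V-ATPase 0 of 25, of which 2 varied. Of all probe sets 1.58% were called lower and 1.68% higher.

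The first comparison asks what 4 weeks of protein restriction did to these mRNAs. Rank products called 7 member probe sets lower in LP (6.67%), against 1.58% of all probe sets, and 1 higher (0.952%), against 1.68% of all. Among probe sets that vary, 7 of 20 members (35.0%) were called lower, against 12.4% of all that vary. The 7 lower calls stand for 4 genes, and probe sets of 1 gene share the RNA of the same rats. When rank products were run over the varying probe sets alone, 0 members were called. By limma 0 members passed, as did 0% of all probe sets, and the smallest adjusted p of a member was 0.463. At an unadjusted p under 0.05 limma counted 10 members (9.52%), 5 of them varying, against 7.54% of all probe sets. The median change of the 20 varying members was -0.047 on the log2 scale, and that of all varying probe sets 0.017. Of the 20, 11 had a lower mean in LP (55.0%), against 42.4% of all varying probe sets. In whole muscle, fewer cells of a type and less RNA in each cell cannot be told apart.

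Sqstm1 encodes p62, the receptor that links ubiquitinated cargo to the autophagosome membrane and is itself degraded there. Its probe set 1371353_at gave log2 signals of 11.15, 11.19, 11.21 and 11.22 in LP rats, against 11.36, 11.38, 11.43 and 11.43 in CN rats. Every LP array lay below every CN array, with SDs of 0.031 in LP and 0.034 in CN. The change was -0.21 (SE 0.023), or 0.866-fold, with an exact two-sided permutation p of 0.0286, the smallest that 4 against 4 arrays allow, not adjusted over probe sets. It was the only varying member without overlap (5.0% of 20), where 2.49% of all varying probe sets were lower in every LP array, and the only member call that held without each of the 8 arrays in turn, at -0.22 to -0.19. The second probe set, 1389381_at, gave 8.37, 8.55, 8.61 and 8.61 in LP rats, against 8.75, 8.58, 8.89 and 8.91 in CN rats. There CN replicate 2 fell among the LP values, and the change was -0.25 (SE 0.095).

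Ctsl encodes cathepsin L, a lysosomal cysteine protease that rises in wasting muscle. Its probe set 1370244_at gave 10.60, 10.89, 10.76 and 10.99 in LP rats, against 11.09, 10.90, 11.04 and 11.11 in CN rats, a change of -0.23 (SE 0.097) with an exact p of 0.0571. Probe set 1370245_at gave 8.69, 9.05, 8.91 and 9.23 in LP rats, against 9.39, 9.16, 9.14 and 9.26 in CN rats, a change of -0.26 (SE 0.13) with an exact p of 0.0857. In both, LP replicate 1 was lowest and LP replicate 4 reached into the CN range.

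Gabarapl1 belongs to the GABARAP family of small proteins that are attached to the autophagosome membrane, and is a known FoxO target in muscle. Probe set 1371680_at gave 8.32, 8.26, 8.54 and 8.39 in LP rats, against 8.74, 8.46, 8.56 and 8.72 in CN rats, a change of -0.24 (SE 0.091) with an exact p of 0.0571. Probe set 1378842_at gave 7.76, 7.85, 8.05 and 8.09 in LP rats, against 8.22, 8.00, 8.16 and 8.25 in CN rats, a change of -0.22 (SE 0.097). The groups overlapped in both through CN replicate 2, the lowest CN array in each. The related Gabarap averaged 11.27 ± 0.042 over the LP rats and 11.25 ± 0.043 over the CN rats (mean ± SD of 4 arrays, as below) and was not called.

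Creg1 encodes a secreted glycoprotein that also resides in lysosomes. Probe set 1381968_at gave 9.07, 9.26, 9.21 and 9.17 in LP rats, against 9.23, 9.23, 9.30 and 9.48 in CN rats, a change of -0.13 (SE 0.071), and was called lower. Probe set 1375428_at gave 7.24, 8.09, 8.18 and 8.12 in LP rats, against 7.69, 7.94, 7.88 and 7.88 in CN rats, and was called higher at a change of 0.063 (SE 0.23). Here 3 LP arrays lay above all CN arrays and LP replicate 1 below all of them, and the change was 0.28 without that array. The exact p was 0.114 for the first probe set and 0.80 for the second, so the 2 probe sets give no settled direction for Creg1 at this age.

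**Figure D2:**
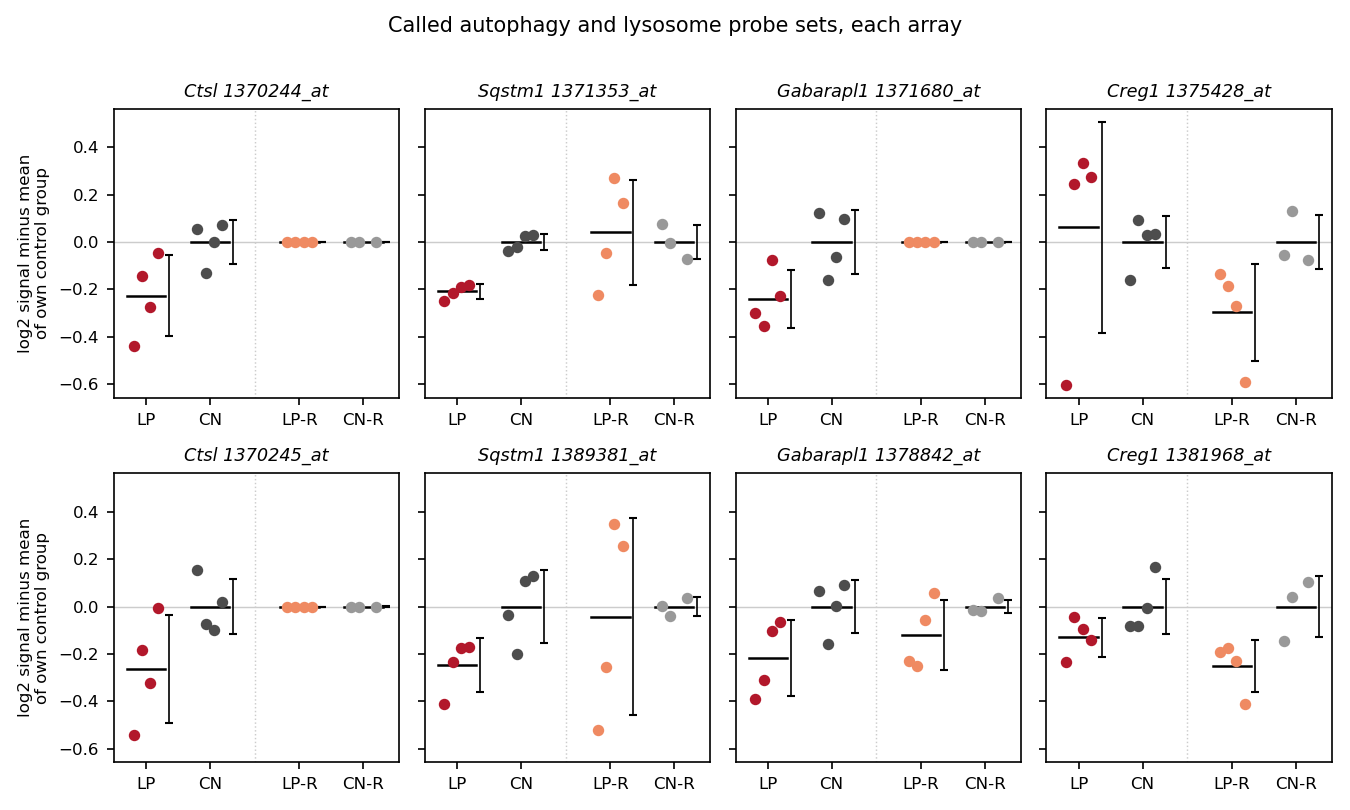
Each array of the 8 probe sets called in LP vs CN, as log2 signal minus the mean of the group's own control (vertical axis), with the group mean as a line and the SD as a bar (LP, CN and LP-R n = 4, CN-R n = 3). For Sqstm1 1371353_at all LP points lie below all CN points, and for Creg1 both probe sets have all LP-R points below all CN-R points.

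**Figure D3:**
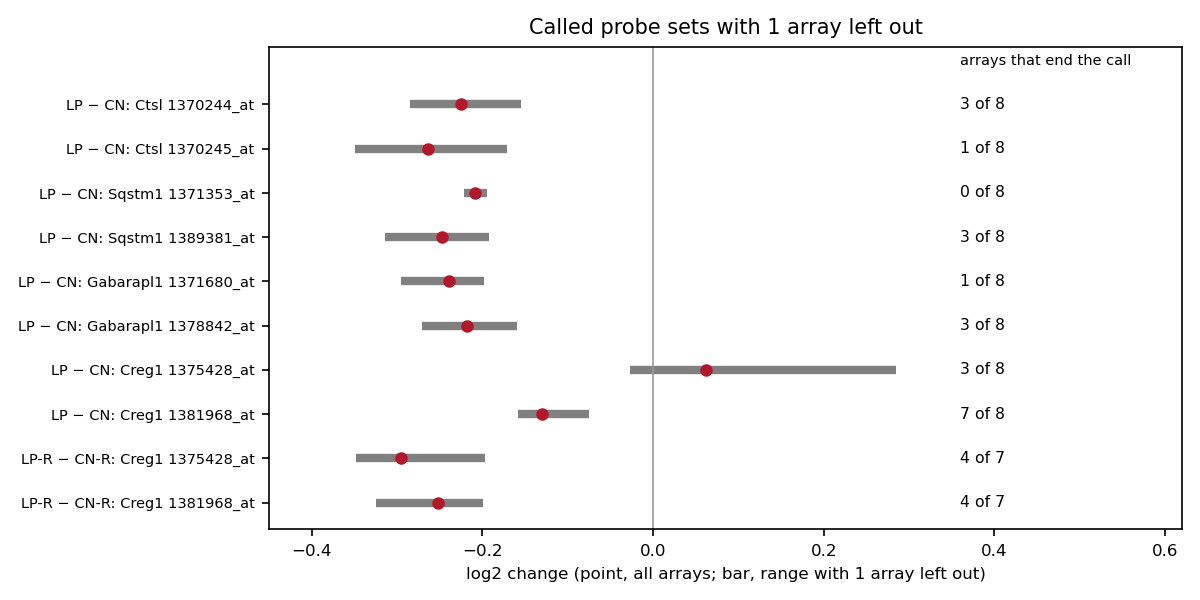
log2 change of each called probe set with all arrays (point) and its range with 1 array left out in turn (bar), with the number of arrays whose absence ended the call. Only Sqstm1 1371353_at in LP vs CN lost its call in 0 of 8 cases, and Creg1 1375428_at crossed 0.

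Leaving out a control array makes the groups unequal, and the count of lower calls over all probe sets was then 133 to 271 without a CN array and 391 to 626 without an LP array, against 492 with all arrays. Every loss of a call of Ctsl, Gabarapl1 or Sqstm1 came with the omission of a CN array. Their changes stayed negative, as for Ctsl 1370244_at, at -0.22 without CN replicate 3 and -0.23 with all arrays. The calls of Ctsl 1370245_at and Gabarapl1 1371680_at were lost only without CN replicate 1, with changes of -0.35 to -0.17 and -0.29 to -0.20 over all 8 omissions. The calls of Ctsl 1370244_at, Gabarapl1 1378842_at and Sqstm1 1389381_at were lost without CN replicate 1, 3 or 4, and their changes stayed between -0.31 and -0.15. Creg1 1381968_at kept its call in 1 omission, that of LP replicate 2, and lost it with quantile normalization, while Creg1 1375428_at lost its call without LP replicate 2, 3 or 4.

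The remaining varying members were not called. In the mitophagy receptors, which bring mitochondria to the autophagosome, Bnip3 was at 11.59 ± 0.080 in LP and 11.65 ± 0.062 in CN. Bnip3l 1386978_at was at 9.21, 9.17, 9.18 and 9.12 in LP rats, against 9.13, 9.09, 9.05 and 9.12 in CN rats, a change of 0.074 (SE 0.026) with an exact p of 0.0571 and an adjusted p by limma of 0.628. Among the lysosomal proteins, the aspartic protease Ctsd had a change of -0.083 (SE 0.029), the membrane protein Lamp2 one of -0.054 (SE 0.051) and Ctsc, which activates granule proteases, one of 0.067 (SE 0.050). In the machinery that forms the autophagosome, the initiating kinase Ulk1 had a change of -0.039 (SE 0.027), its partner Atg101 one of 0.045 (SE 0.054), and Atg12, a ubiquitin-like protein of the conjugation system, one of 0.069 (SE 0.042). The V-ATPase subunits Atp6v1e1 and Atp6v1f had changes of 0.043 (SE 0.028) and 0.012 (SE 0.0089). None of these uncalled members had a change above 0.083 in size, and every one overlapped between the groups. Wipi2, which binds the lipid made by the Becn1 complex, ran from 7.54 to 7.80 in LP and from 7.58 to 7.72 in CN.

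**Figure D4:**
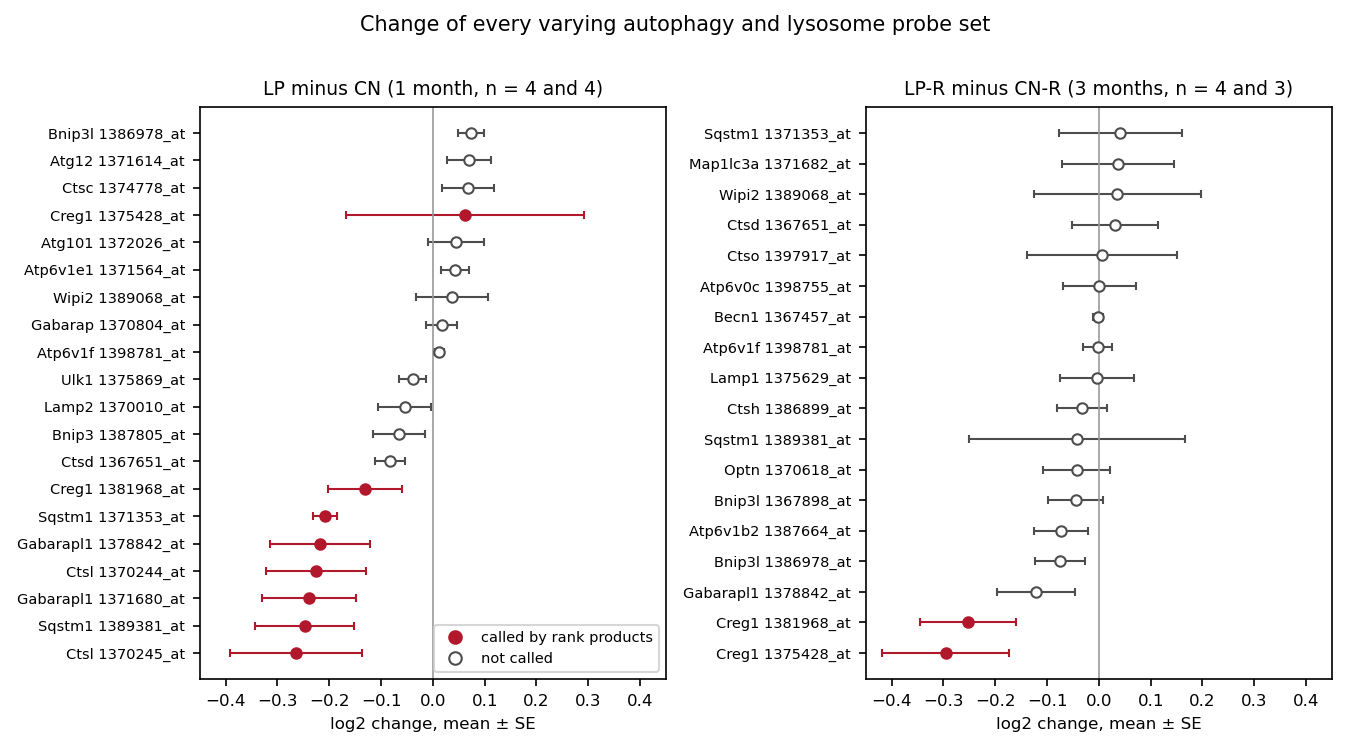
log2 change with its SE (horizontal axis) of each varying member probe set, LP minus CN on the left and LP-R minus CN-R on the right, with called probe sets filled. The lower calls of LP vs CN lie between -0.26 and -0.13, and on the right only the 2 Creg1 probe sets were called.

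The second comparison asks whether a difference was present at day 84. Rank products called 2 member probe sets lower in LP-R (1.90%), against 0.171% of all probe sets, and 0 higher, against 0.345% of all. Those shares rest on 53 lower and 107 higher calls over all probe sets, which became 154 lower and 64 higher when centred values were permuted, with the same count of members. Among varying probe sets, 2 of 18 members (11.1%) were called lower, against 1.71% of all that vary. Over the varying probe sets alone, rank products called 0 members. By limma 0 members passed, as did 0% of all probe sets. The smallest adjusted p of a member by limma was 0.819, at the near constant Atg12 1382735_at. At an unadjusted p under 0.05 limma counted 6 members (5.71%), only 1 of them varying, against 5.04% of all. The median change of the 18 varying members was -0.018, against -0.024 over all varying probe sets, and 66.7% of them had a lower mean in LP-R, against 66.0% of all. Both calls were of 1 gene, Creg1, which was listed by its own name, so the shares of members called rest on it alone. Its probe set 1381968_at gave 8.88, 8.90, 8.84 and 8.66 in LP-R rats, against 8.93, 9.11 and 9.18 in CN-R rats, a change of -0.25 (SE 0.092), or 0.840-fold, with an exact p of 0.0286. Probe set 1375428_at gave 8.14, 8.09, 8.00 and 7.68 in LP-R rats, against 8.22, 8.41 and 8.20 in CN-R rats, a change of -0.30 (SE 0.12), or 0.815-fold, with an exact p of 0.0571. In both, every LP-R array was below every CN-R array, as in 3.32% of all varying probe sets, and LP-R replicate 4 was the lowest. Each call was lost without LP-R replicate 4, without any 1 of the CN-R arrays, and when CN-R replicate 4 was counted as LP-R, where the change was -0.13 for 1381968_at and -0.29 for 1375428_at. This comparison has 4 arrays against 3. Without a CN-R array the lower calls over all probe sets numbered 2, 6 or 9, against 53 with all arrays. Without an LP-R array the groups are equal in size, and 72 to 133 probe sets were called lower and 30 to 62 higher. The change stayed between -0.35 and -0.20 over the 7 omissions for 1375428_at and between -0.32 and -0.20 for 1381968_at.

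Ctsl, Gabarapl1 and Sqstm1 carried no call at this age. Both probe sets of Ctsl and Gabarapl1 1371680_at were near constant in LP-R and CN-R, so their differences there could not be measured. Gabarapl1 1378842_at gave 7.67, 7.65, 7.84 and 7.95 in LP-R rats, against 7.88, 7.88 and 7.93 in CN-R rats, a change of -0.12 (SE 0.075) with an exact p of 0.286. Sqstm1 1371353_at gave 11.40, 11.58, 11.89 and 11.79 in LP-R rats, against 11.70, 11.62 and 11.55 in CN-R rats, a change of 0.042 (SE 0.12). Sqstm1 1389381_at gave 8.37, 8.63, 9.24 and 9.15 in LP-R rats, against 8.89, 8.85 and 8.93 in CN-R rats. In both, LP-R replicates 1 and 2 were below LP-R replicates 3 and 4, and the SD was 0.22 and 0.42 in LP-R, against 0.073 and 0.038 in CN-R. Map1lc3a, the LC3 family member that varied at this age, gave 10.11, 10.06, 10.36 and 10.42 in LP-R rats, against 10.31, 10.10 and 10.19 in CN-R rats. Ctsd gave 10.63, 10.62, 10.91 and 10.85 in LP-R rats, against 10.79, 10.68 and 10.70 in CN-R rats. The same arrays were low and high in these, and the group means differed by 0.037 (SE 0.11) for Map1lc3a and 0.030 (SE 0.083) for Ctsd. Becn1 averaged 9.11 ± 0.020 over the 4 LP-R rats and 9.11 ± 0.0042 over the 3 CN-R rats. Lamp1 1375629_at lay at 6.31, under the median of 6.47 over all probe sets in these arrays, and had a change of -0.0037 (SE 0.072). The brighter Lamp1 probe set, 1368504_at, was near constant at 11.12. The mitophagy receptor probe sets Bnip3l 1386978_at and 1367898_at had changes of -0.075 (SE 0.048) and -0.045 (SE 0.053).

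The other varying members of LP-R and CN-R were not called either. Wipi2 gave 7.60, 7.54, 8.01 and 8.00 in LP-R rats, against 7.70, 7.95 and 7.62 in CN-R rats, again with LP-R replicates 1 and 2 low and 3 and 4 high. The V-ATPase subunit Atp6v0c, which forms the proton channel, gave 10.45, 10.45, 10.68 and 10.64 in LP-R rats, against 10.62, 10.51 and 10.54 in CN-R rats, a change of 0.0012 (SE 0.070). Its partner Atp6v1b2 had a change of -0.074 (SE 0.052) and Atp6v1f one of -0.0017 (SE 0.028). The receptor Optn had a change of -0.043 (SE 0.064), and the cathepsins Ctsh and Ctso had changes of -0.032 (SE 0.048) and 0.0061 (SE 0.14). Ctso gave 6.70, 6.55, 6.49 and 6.87 in LP-R rats, against 6.53, 6.53 and 6.88 in CN-R rats, so that its highest CN-R value was that of the array whose treatment field names protein restriction.

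The difference between the early and the late change was taken for the 9 probe sets that varied in both sets of arrays. Its exact p came from splits of restricted and control arrays within each set, which stand for no change at either age. Equal changes at both ages were not tested as such, as a change at only one age also bears on this p. For Sqstm1 1371353_at the change at 1 month minus that at 3 months was -0.25 (exact p 0.0943, adjusted over the 9 tests 0.424). For Gabarapl1 1378842_at the difference was -0.096 (exact p 0.544). For Creg1 it was 0.12 for 1381968_at (exact p 0.456) and 0.36 for 1375428_at (exact p 0.214). None of the 9 passed after adjustment, and the loss of the calls of Sqstm1 and Gabarapl1 at 3 months was not shown to be a change of effect.

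Other genes of the pathway were given by 3 lists drawn from general knowledge. Of 52 probe sets for 35 genes of the autophagy machinery outside the member rule, 3 were called lower in LP (5.77%, against 1.58% of all probe sets) and 0 higher (against 1.68% of all, and likewise for the lists below). Rb1cc1, the scaffold of the Ulk kinase complex, was at 9.72 ± 0.034 in LP and 9.83 ± 0.037 in CN for 1379449_at (change -0.12, SE 0.025) and at 9.26 ± 0.057 in LP and 9.37 ± 0.037 in CN for 1385194_at (change -0.11, SE 0.034). Vcp, an ATPase that unfolds ubiquitinated proteins, was at 11.23 ± 0.020 in LP and 11.31 ± 0.046 in CN (change -0.085, SE 0.025). For Rb1cc1 1379449_at and Vcp all LP arrays were below all CN arrays, as in 2.49% of all varying probe sets. The 3 calls of this list were lost without any 1 of the 4 CN arrays, that of 1385194_at also without LP replicate 2 or 3. Of 52 probe sets for 39 further lysosomal genes, 1 was called higher in LP (1.92%) and 0 lower: Arsb, arylsulfatase B, had a change of 0.21 (SE 0.089), which lost its call without LP replicate 1, 2 or 3. Of 69 probe sets for 41 genes of nutrient sensing and of the transcriptional control of autophagy, 1 was called higher in LP (1.45%) and 7 lower (10.1%). Deptor, an inhibitor of mTOR, was at 10.52 ± 0.079 in LP and 10.30 ± 0.079 in CN, without overlap (change 0.22, SE 0.056, exact p 0.0286). The share of all varying probe sets higher in every LP array was not counted. Deptor lost its call without LP replicate 1, 2 or 3. Prkab2, a subunit of the energy sensor AMPK, was at 7.18 ± 0.055 in LP and 7.32 ± 0.076 in CN, also without overlap (against the same 2.49%), and lost its call without any 1 of the CN arrays. Mitf, a relative of TFEB, had a change of -0.28 (SE 0.14), lost without CN replicate 1 or 3, and Foxo1 one of -0.27 (SE 0.19), lost without CN replicate 3 or 4 or LP replicate 1. The other lower calls were Ddit4, an mTOR inhibitor induced by stress, and 3 probe sets of Ppargc1a, a coactivator of mitochondrial genes, with changes of -0.51 (SE 0.62), -0.066 (SE 0.63) and -0.056 (SE 0.64). The call of Ddit4 (change -0.72, SE 0.70, exact p 0.314) held in all 8 omissions, at -1.21 to -0.38. In the order of replicate number Ddit4 gave 10.13, 9.01, 7.64 and 7.83 in LP rats, against 10.32, 9.63, 9.11 and 8.43 in CN rats. Replicate 1 was thus the highest in both groups, and each LP array lay below the CN array of its number. The call of the first Ppargc1a probe set was lost without CN replicate 3. The calls of the last 2 were lost without any of 5 arrays, and their changes reached 0.27 and 0.29 over the omissions. In LP-R against CN-R 0 probe sets of the 3 lists were called, against 0.345% of all probe sets higher and 0.171% lower. Of the 3 lists 10 of 52, 6 of 52 and 20 of 69 probe sets varied there. Both Rb1cc1 probe sets, Arsb and Deptor were near constant in LP-R and CN-R, so their differences there could not be measured. The medians over the varying probe sets of the lists were -0.023, -0.038 and -0.033, against -0.024 over all varying probe sets.

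Macrophages are rich in lysosomes, so their markers were read beside these genes. Of 22 marker probe sets for 19 genes of macrophages and other white blood cells, 5 varied in each comparison. In LP against CN 0 were called, against 1.68% of all probe sets higher and 1.58% lower. The summed linear signal of the 22 ran from 4316 to 4771 in LP and from 4297 to 4673 in CN. Near constant probe sets add a fixed amount, within each set of arrays, to this sum and to those below. In LP-R the sum ran from 4004 to 4152, against 4016 to 4078 in CN-R. There 1 of the 22 was called higher (4.55%, against 0.345% of all probe sets), lysozyme (Lyz2), at 9.83 ± 0.058 in LP-R and 9.67 ± 0.064 in CN-R. Its call was lost without LP-R replicate 2, 3 or 4. Endothelial markers had 3 of 13 probe sets called higher in LP (23.1%, against 1.68% of all), with sums of 3783 to 4243 in LP and 3575 to 3839 in CN. The call of Kdr held in all 8 omissions. That of Emcn was lost without LP replicate 1 or 2, and that of Cldn5 without CN replicate 3 or LP replicate 1, 2 or 3. Fibroblast markers had 2 of 12 called lower in LP (16.7%, against 1.58% of all), Col1a1 and Col1a2, with sums of 36087 to 39779 in LP and 34687 to 46374 in CN. The call of Col1a1 was lost without any of 4 arrays and that of Col1a2 without any of 6. Adipocyte markers had 1 of 7 called higher in LP (14.3%, against 1.68% of all), with sums of 3855 to 5172 in LP and 3659 to 4842 in CN. This call, of Adipoq (exact permutation p 0.40), was lost without LP replicate 1 or 4. In LP-R 1 of the 7 adipocyte probe sets, that of Cfd, was called lower (14.3%, against 0.171% of all probe sets). Of 16 skeletal muscle fiber probe sets 2, both of Myh1, were called higher (12.5%, against 0.345% of all). The call of Cfd was lost without any 1 of the CN-R arrays. Those of Myh1 were lost without CN-R replicate 2 or LP-R replicate 1, 3 or 4. The adipocyte sums ran from 2610 to 2667 in LP-R and from 2675 to 2736 in CN-R, without overlap. Those of fibroblasts (13967 to 17136, against 15325 to 18207), nerve (1254 to 1356, against 1315 to 1468) and endothelium (2713 to 2881, against 2705 to 3097) overlapped. All 8 varying fibroblast and all 5 varying nerve probe sets had a lower mean in LP-R, as did 66.0% of all varying probe sets. The part of these cells in the differences of Sqstm1, Ctsl, Gabarapl1 and Creg1 was not tested.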

How the data were processed

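Total RNA of gastrocnemius muscle was hybridized to Affymetrix rat genome arrays. The authors summarized the probes with FARMS in R, and the deposited values are log2 signals per probe set. Their constants differ between the 1-month and the 3-month arrays, which were therefore taken as 2 separate summaries, and each restricted group was compared only with its own control. Control probe sets (57) were left out, and probe set symbols came from GEO's platform annotation: 20826 of 31042 carried 1 symbol, 436 several and 9780 none. No further normalization was applied.

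Rank products were run in Python 3.11.15 with numpy 2.4.6, pandas 2.3.3 and scipy 1.17.1 over all pairs of arrays, with 100 shuffles of each array's values (seed 1) and a limit of 0.05 on the estimated proportion of false positives. The shuffles assume 1 spread for every probe set. limma 3.58.1 in R 4.3.3 was run beside it with Benjamini-Hochberg adjustment over all 31042 probe sets. Both were tested on simulated data, where both recovered most changed probe sets and rank products also called many unchanged ones. Recovery of changes as small as those of the called members was not tested. Exact permutation tests were two-sided and not adjusted over genes unless stated. The labels number biological replicates, which were taken as separate rats, and precision is limited by their number. The paper's methods speak of 1 individual per treatment group, chosen for a body weight near the group average, whereas each group has 4 or 3 arrays.

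The members and lists were chosen with earlier results of these data known. Named were fixed genes (among them Map1lc3a, Gabarap, Gabarapl1, Sqstm1, Bnip3, Bnip3l, Becn1, Ulk1, Tfeb, Ctsl, Ctsb, Ctsd, Lamp1, Lamp2 and Creg1), every called member, up to 6 varying members per direction with the smallest limma p, and up to 3 called genes per direction from each list. Ddit4, Ppargc1a and the called markers were named outside this rule. Alternatives were quantile normalization, median centring, varying or bright probe sets only, another prior, a replicate block, the placement of CN-R replicate 4, leaving out each array and, chosen after seeing the data, permutation of centred values. Red blood cell and nerve markers had 0 calls of 4 and of 7 probe sets in both comparisons. Of all probe sets, 1.68% were called higher and 1.58% lower in LP, and 0.345% and 0.171% in LP-R. Of the 4 red blood cell probe sets 1 varied in each comparison, and of the 7 nerve probe sets 3 varied in LP and CN and 5 in LP-R and CN-R.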

Additional observations from a re-analysis of the deposited data

Results flagged for a closer look

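In LP, replicate 1 of Creg1 1375428_at lay at 7.24, apart from the other LP arrays, which lay between 8.09 and 8.18. It was the only one of 54 groups of 4 arrays tested whose farthest array passed Dixon's 95% critical value, and chance passes about 1 in 20 such groups. CN replicate 1 was also the lowest CN array of this probe set, at 7.69 against 7.88 to 7.94.

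The change of Bnip3l 1386978_at had opposite signs at the 2 ages. It was 0.074 for LP minus CN and -0.075 for LP-R minus CN-R, a difference of 0.149 (exact permutation p 0.0204, adjusted over 9 tests 0.184). The difference did not pass after adjustment, and its p is against no change at either age rather than against equal changes.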

How the results depend on the processing

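For LP against CN, quantile normalization gave 1 member probe set called higher and 6 lower, median centring and permutation of centred values 1 and 7, and varying probe sets only 0 and 0. With each array omitted, 0 to 2 were called higher and 1 to 7 lower, and the median change of the varying members ran from -0.063 to -0.025. The change of Creg1 1375428_at, called higher, was 0.28 without LP replicate 1, -0.027 without LP replicate 3 and -0.0087 without LP replicate 4. For LP-R against CN-R, 0 were called higher and 2 lower under both normalizations and with centred values, 0 and 0 over varying probe sets only, and 1 (Ctso) and 0 with CN-R replicate 4 counted as LP-R. Without 1 array in turn, 0 were called higher and 0 to 2 lower, and the median change ran from -0.043 to 0.011. limma called 0 members under every alternative run, in both comparisons.

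Over all probe sets, the LP-R calls numbered 107 higher and 53 lower, and 64 higher and 154 lower with centred values, so the direction of the overall split depends on how the values are permuted. With varying probe sets only, 11 higher and 20 lower were called for LP and 5 and 2 for LP-R. For LP against CN with all arrays but 1, the groups differ in size and the overall split followed: 104 to 195 higher and 391 to 626 lower without an LP array, and 424 to 635 higher and 133 to 271 lower without a CN array. Quantile normalization moved the median change of all probe sets by less than 0.001.

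Same-numbered arrays deviated together with r of -0.031 to 0.551 in LP and CN and 0.044 to 0.215 in LP-R and CN-R, above 0.1 in 3 of 4 and 2 of 3 pairs, and 2 of 4 LP arrays and 2 of 3 LP-R arrays correlated best with their own number. As not every pair passed 0.1 and the labels name no shared litter or day, the numbers were not taken to pair the rats. With the replicate block, rank products called 1 member higher and 6 lower in LP and 0 and 2 in LP-R, and limma called 0.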
